A study of Mus musculus with 4 samples.

Results

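The 5 loci described here hold the accessible regions that were strongest among those found in WT microglia and not in IRF8KO microglia: Magi1, Phactr2, Lbh, Tifa and Rasgrf2. Strength is meant here by the smaller −log10 q of the 2 WT libraries, not by pileup. A locus is the gene body plus 50 kb on each side in GRCm38, with GENCODE M21 gene models, and its members are all deposited peaks that overlap it. The 4 lists put peaks at 412 separate positions in the 5 loci. At 181 of these at least 1 library had a strict peak (−log10 q of 2 or more), and these 181 merged regions, of 155546 on the autosomes and chromosome X, carry the values below. The other 231 positions held only weaker peaks. The gene bodies are chr6:93675455-94283917 for Magi1, chr10:13207717-13474412 for Phactr2 and chr13:91880400-92131656 for Rasgrf2, all on the minus strand, and chr17:72918305-72941947 for Lbh and chr3:127789805-127832164 for Tifa, on the plus strand. Positions within a gene are given from its start in the direction of transcription.

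Microglia are the resident macrophages of the brain, and ATAC-seq maps open chromatin by where the Tn5 transposase can cut it. The libraries were made from FACS-sorted microglia of untreated 3-month-old C57BL/6 mice, 2 labelled WT and 2 labelled IRF8KO, isolated without enzymes and amplified with 12 PCR cycles. The labels say no more of the IRF8KO allele and do not say whether replicates came from separate mice, so the spread between replicates is that between libraries and may be technical. Depth followed genotype: the WT libraries had 46948938 tags (replicate 1) and 48896408 (replicate 2), the IRF8KO ones 78793572 and 66224648. Values are given as normalised pileup, the authors' pileup of cut sites at the summit per 1000000 tags of the library. All pileup values and all values given without another unit below are on this scale.

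IRF8 belongs to the interferon regulatory factors, a family of transcription factors, and macrophages and microglia need it for their normal identity. It binds DNA weakly alone, and together with the ETS factor PU.1 it binds composite ETS-IRF elements, in which the ETS core GGAA stands next to the IRF core GAAA. The 5 genes have different roles: MAGI1 is a scaffold of cell junctions, PHACTR2 binds actin and protein phosphatase 1, LBH is a transcription cofactor, TIFA is an adaptor of innate immune signalling, and RASGRF2 activates the small GTPases Ras and Rac.

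The loci were picked from the WT against IRF8KO contrast itself. Values of that contrast are therefore descriptions without a test, and an exact permutation test of 2 against 2 libraries could not go below p = 0.333. Peaks were tied to genes by position alone, and no expression was measured. Because these are bulk libraries, fewer cells of a kind and less open chromatin per cell cannot be told apart.

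Promoters of the marker genes showed what the libraries held. Strict peaks lay within 1 kb of the start of 12, 12, 11 and 11 of 12 microglia markers (WT replicates 1 and 2, IRF8KO replicates 1 and 2), Sall1 being without one in both IRF8KO libraries. Their summed normalised pileup was 43.3 and 33.3 in WT and 17.4 and 26.3 in IRF8KO. For 4 markers of border macrophages the sum was 1.0 and 0.818 in WT and 3.21 and 5.32 in IRF8KO, with Lyve1 at 0 in all 4 libraries and Cd163 at 0 in both WT libraries. The 2 monocyte markers were at 0 in all 4 libraries. Both WT sums also lay above both IRF8KO sums for astrocytes (1.13 and 0.511 against 0.254 and 0.453), neutrophils (1.19 and 0.491 against 0.178 and 0.453) and lymphocytes (0.234 and 0.225 against 0 and 0). Within these lists Aqp4, S100a9, Elane and Cd3e were at 0 in all 4 libraries. The neuron sums overlapped between genotypes, between 0.393 and 1.06, and so did the endothelial sums, between 1.42 and 1.93. The part of the lists whose sums move with genotype in the results below was not tested.

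The strongest WT-only region of each locus, called its lead, is shown here by the 201 bases around the summit of WT replicate 1, because these letters are the DNA that was open in WT and without a deposited peak in IRF8KO. WT-only means a strict peak in both WT lists and no deposited peak of any strength in both IRF8KO lists. Letters are from the plus strand of GRCm38, 5′ to 3′, and capitals mark matches to the ETS-IRF element GGAANNGAAA on either strand.
Magi1 lead (chr6:94159350-94159550): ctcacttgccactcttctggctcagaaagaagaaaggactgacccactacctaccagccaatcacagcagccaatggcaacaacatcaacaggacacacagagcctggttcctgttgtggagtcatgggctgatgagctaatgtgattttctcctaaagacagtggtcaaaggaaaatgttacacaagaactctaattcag
Phactr2 lead (chr10:13438554-13438754): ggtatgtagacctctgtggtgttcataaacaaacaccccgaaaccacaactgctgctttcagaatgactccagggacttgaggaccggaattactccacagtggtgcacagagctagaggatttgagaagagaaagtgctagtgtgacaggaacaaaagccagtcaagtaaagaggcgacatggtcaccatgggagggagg
Lbh lead (chr17:72903935-72904135): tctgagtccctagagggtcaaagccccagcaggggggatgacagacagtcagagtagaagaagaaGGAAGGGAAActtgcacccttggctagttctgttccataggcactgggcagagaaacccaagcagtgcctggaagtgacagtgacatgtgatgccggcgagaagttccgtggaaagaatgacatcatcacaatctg
Tifa lead (chr3:127796412-127796612): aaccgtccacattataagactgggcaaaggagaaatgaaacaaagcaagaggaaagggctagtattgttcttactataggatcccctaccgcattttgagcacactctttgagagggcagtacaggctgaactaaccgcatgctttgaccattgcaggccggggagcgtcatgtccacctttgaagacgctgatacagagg
Rasgrf2 lead (chr13:92030798-92030998): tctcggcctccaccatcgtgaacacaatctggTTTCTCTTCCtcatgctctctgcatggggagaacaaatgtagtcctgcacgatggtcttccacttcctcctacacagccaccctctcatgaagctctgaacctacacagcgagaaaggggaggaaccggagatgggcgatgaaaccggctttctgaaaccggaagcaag

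In the Lbh window the composite element reads GGAAGGGAAA on the plus strand, with its centre 30 bp before the summit. In the Rasgrf2 window it reads GGAAGAGAAA on the minus strand, 63 bp before the summit in genome coordinates, and a PU.1 match (GAGGAAGT, minus strand) lies 3 bp from the summit. The Phactr2 window holds a RUNX match (TGTGGTT, minus strand) 56 bp from the summit. None of the 10 motifs searched was found in the Magi1 and Tifa windows, which says only that these letters are absent from those 201 bases. The G and C content of the 5 windows ran from 46.3% in Magi1 to 53.2% in Rasgrf2.

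The Magi1 lead (chr6:94159256-94159943) had the highest pileup of the 5. Normalised pileup reached 8.58 in WT replicate 1 and 6.42 in WT replicate 2, with −log10 q of 354 and 273, and neither IRF8KO list has a peak there. The nearest IRF8KO peaks lay 2.93 kb away in replicate 1 (0.114) and 29.0 kb away in replicate 2 (0.136). The region lies in the first intron of the longest coding transcript, 124 kb inside the gene.

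At Phactr2 the lead (chr10:13438430-13438809) also lay in the first intron, 35.8 kb from the gene start. Pileup was 5.69 and 4.64 in the WT libraries, with −log10 q of 295 and 256. IRF8KO replicate 1 held a weak strict peak 21 bp away from the region, at 0.152 with −log10 q of 2.44. In IRF8KO replicate 2 the nearest peak was 4.88 kb away. In IRF8KO replicate 1 a low peak thus stood directly beside the WT region.

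The Lbh lead (chr17:72903800-72904314) was the only one of the 5 outside its gene, 14270 bp upstream of the start. WT pileup was 6.07 and 4.62 (−log10 q 330 and 249), and the nearest IRF8KO peaks were 4.97 and 4.71 kb away. The Tifa lead (chr3:127796329-127796656) spanned the end of intron 2 and the start of exon 3, with 75 coding bases in its 328 bp. It reached 5.52 and 4.19 in WT (−log10 q 289 and 224), and the nearest IRF8KO peaks were 3.05 and 2.25 kb away. The Rasgrf2 lead (chr13:92030709-92031075) covered exon 5 of the longest transcript, with 222 coding bases in 367 bp. Its summit lay 101 kb inside the gene and 6 bp from the annotated start of a shorter coding transcript. WT pileup there was 6.03 and 3.70 (−log10 q 335 and 204), and the nearest IRF8KO peaks were 7.92 and 9.19 kb away.

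In every lead WT replicate 1 was higher than WT replicate 2, and both placed the summit at nearly the same base. The summits differed by 6 bp in Magi1, 2 bp in Phactr2, 3 bp in Lbh, 10 bp in Tifa and 9 bp in Rasgrf2. A position without a deposited peak has no value in that list, so no fold is given for the leads. The lowest normalised pileup of any deposited peak was 0.128 and 0.123 in WT and 0.102 and 0.106 in IRF8KO, which is the scale on which a peak can be missed. Of the 5 leads the smaller −log10 q of the WT pair was lowest at Rasgrf2, at 204. The WT-only region just below it (chr4:87682743-87683562, 122732 bp from a start of Mllt3, a subunit of elongation complexes) had 271 and 201, with 5.20 and 3.72.

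**Figure D1:**
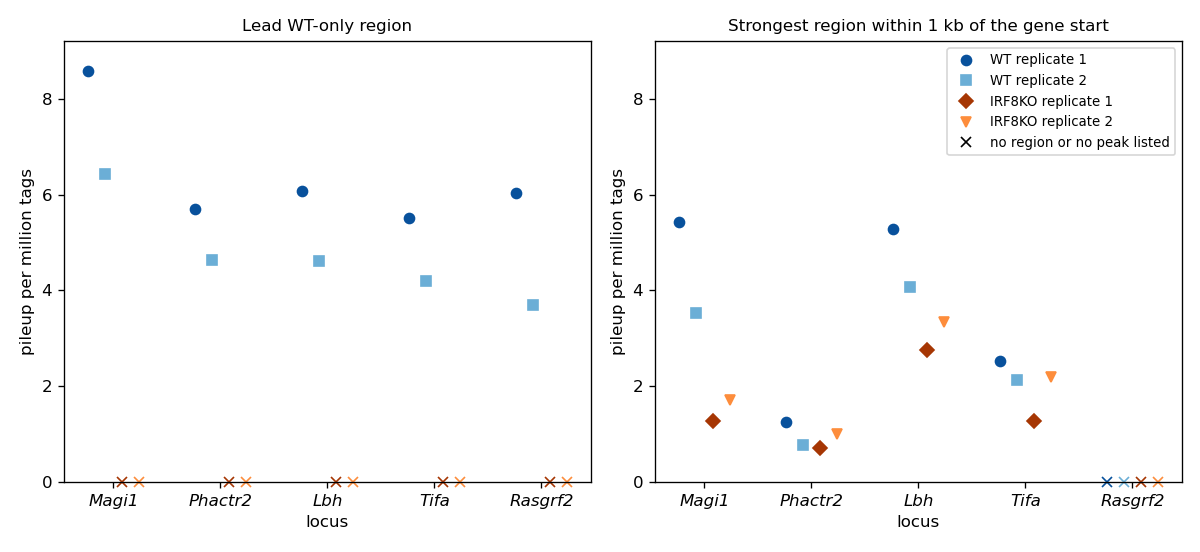
Normalised pileup (per 1000000 tags) in each of the 4 libraries (points) at the lead WT-only region of each locus (left) and at the strongest region within 1 kb of the gene start (right); crosses mark libraries without a listed peak. All 5 leads sit between 3.70 and 8.58 in WT and lack IRF8KO values by the rule that chose them. At the gene starts of Magi1, Phactr2, Lbh and Tifa all 4 libraries have values and Rasgrf2 has none.

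At the gene starts 4 of the 5 genes kept an open promoter in all 4 libraries. The leads lack IRF8KO peaks by the rule that chose them, so a contrast of the starts with the leads draws on that choice. At the start of Magi1 pileup was 5.43 and 3.52 in WT and 1.28 and 1.72 in IRF8KO, a log2 ratio (IRF8KO mean minus WT mean of log2 normalised pileup) of −1.56. Both WT values lay above both IRF8KO values. A further WT-only region (chr6:94284647-94284942) stood at −0.859 kb from this start, at 1.04 and 0.818. The Lbh start had 5.28 and 4.07 in WT and 2.75 and 3.35 in IRF8KO (log2 −0.61), again without overlap.

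Tifa had 2 regions near its start. The one at the start itself had 2.45 and 2.07 in WT and 1.27 and 1.60 in IRF8KO (log2 −0.66), without overlap, and the one 1.17 kb into the gene had 2.53 and 2.13 in WT and 1.17 and 2.20 in IRF8KO (log2 −0.53), with overlap. The Phactr2 start was low and overlapping, at 1.26 and 0.777 in WT and 0.711 and 1.01 in IRF8KO (log2 −0.22). No library had a strict peak within 1 kb of the Rasgrf2 gene start. The lead, deep inside the gene, was the highest value of the locus in both WT libraries.

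Neighbouring genes gave a local reference. Within the Phactr2 window the start of Ltv1, a ribosome assembly factor, had 5.94 and 5.24 in WT and 4.10 and 5.16 in IRF8KO (log2 −0.28), narrowly without overlap. The start of Fuca2, a secreted fucosidase on the other side of Phactr2, had 2.85 and 2.31 in WT and 0.723 and 1.27 in IRF8KO (log2 −1.42), without overlap. The region at another annotated start of Fuca2 (chr10:13500563-13501418) had 3.92 and 4.05 in WT and 3.15 and 4.62 in IRF8KO (log2 −0.06). Around Tifa, the start of Alpk1, the kinase that senses bacterial sugars and acts through TIFA, had 3.56 and 3.29 in WT and 2.36 and 4.30 in IRF8KO (log2 −0.10). The start of Ap1ar, a regulator of membrane traffic and of actin, had 5.77 and 4.74 in WT and 4.33 and 6.01 in IRF8KO (log2 −0.04). Zc2hc1b and Ckmt2 had no strict peak at their starts, and the starts of Pex3 and Fam241a lie outside the windows.

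Some of these start values depend on the scaling. With each library scaled by its median over regions strict in all 4 libraries, the ratios of the Magi1, Lbh and Tifa starts remained below 0, at −1.25, −0.31 and −0.35, again without overlap. The Fuca2 start also kept its direction, at −1.12, but its other start region turned to 0.24, with both IRF8KO values above both WT values. The Phactr2 start turned to 0.08, Ltv1 to 0.03 and Alpk1 to 0.20, each with overlap, and at Ap1ar too both IRF8KO values then lay above both WT values (0.27).

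**Figure D2:**
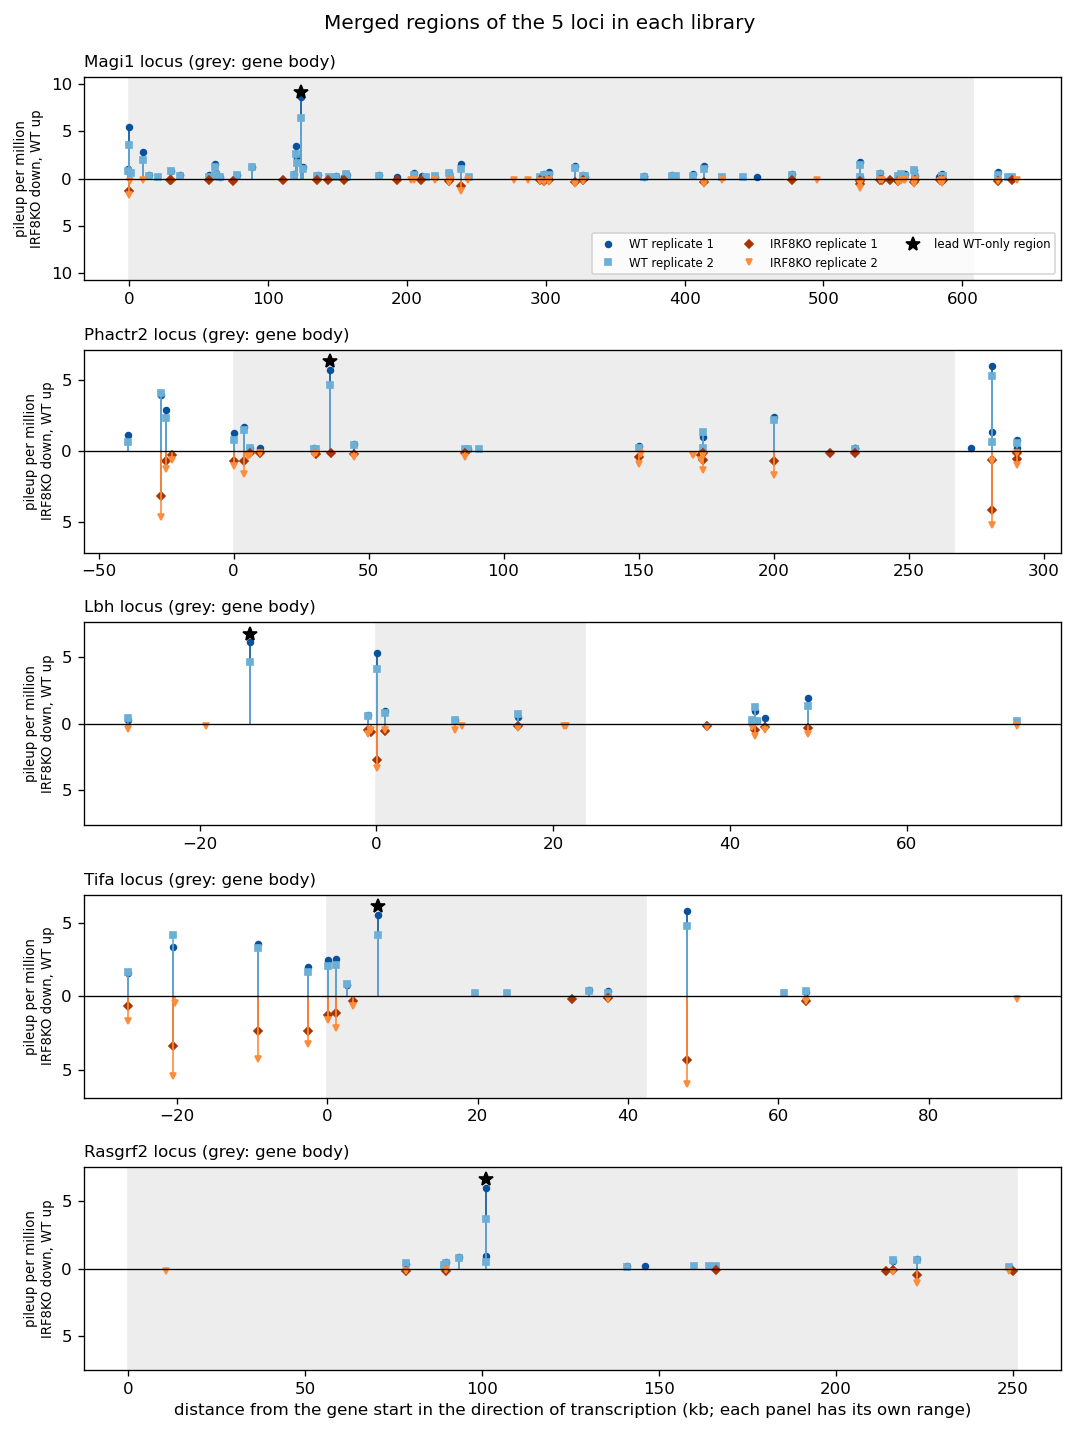
Merged regions of the 5 loci against distance from the gene start in kb, with normalised pileup of the WT libraries drawn upward and of the IRF8KO libraries drawn downward; stars mark the leads and grey the gene body. The Magi1 locus holds 92 regions, most of them low, and each star stands over a position without an IRF8KO line of its own, the low IRF8KO replicate 1 point beside the Phactr2 star being the peak 21 bp away.

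Over the 5 loci 30 of 181 regions were WT-only (16.6%), against 5.58% of all 155546 regions. IRF8KO-only regions, the converse class, numbered 4 (2.21%), against 3.86% of all regions. A further 38 regions had a strict peak in all 4 libraries, as did 31.0% of all regions. Another 109 fell in none of these classes, 58 of them with a deposited peak of any strength in 1 library alone. Because each locus was chosen for a WT-only region, the share without the 5 leads is also given: 25 of 176 (14.2%). Magi1 supplied most of these, and outside Magi1 the share without leads was 6 of 85 (7.06%), near that of all regions. The WT-only count was 17 of 79 regions (21.5%) when a fold enrichment of 5 or more replaced the q threshold, against 4.72% of all regions then. At a normalised pileup of 0.5 or more it was 15 of 67 (22.4%), against 3.92%. The count was 50 of 164 (30.5%) without WT replicate 1 and 47 of 163 (28.8%) without WT replicate 2. A single WT list then decides, and the share of all regions rose to 17.9% and 15.3%. These shares of the loci under other settings include the leads.

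The loci differed widely in this respect. Magi1 had 20 WT-only and no IRF8KO-only regions among 92, Rasgrf2 had 4 and 0 among 17, and Tifa had 3 and 1 among 19. Phactr2 had 2 and 1 among 34, and Lbh had 1 and 2 among 19. Only 1 region of Rasgrf2 was strict in all 4 libraries, against 8 in Tifa, 6 in Lbh, 11 in Phactr2 and 12 in Magi1. Among 21755 protein-coding genes with the same flanks, the gene with the most WT-only regions was Gm20388 with 30, a very long gene model whose window holds 639 regions, followed by Magi1 with 20 and Cdh23 with 15. As many WT-only regions as Phactr2 has, or more, were found at 18.7% of genes. The share was 42.1% for the count of Lbh, 8.10% for that of Tifa and 3.47% for that of Rasgrf2. Every locus count includes the lead for which the locus was chosen, so none could be 0, the median over the genes. Nor were the counts set against window length, which was 708 kb at Magi1 and 124 kb at Lbh. The shares therefore cannot rank the loci against other genes. Without its lead Magi1 had 19 WT-only regions, still more than Cdh23.

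**Figure D3:**
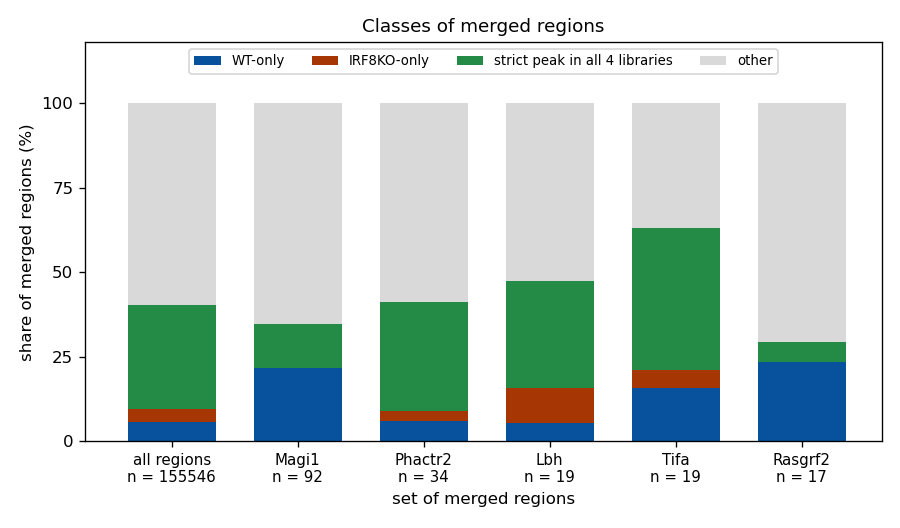
Share of merged regions in each class (stacked bars, in percent) for all regions and for each locus. The WT-only share is 21.7% in Magi1, 23.5% in Rasgrf2 and 15.8% in Tifa, and 5.88% in Phactr2 and 5.26% in Lbh, where all regions give 5.58%. Each locus share counts the lead for which the locus was chosen. In Lbh the lead is the only WT-only region, and Magi1 without its lead has 19 of 91 (20.9%).

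In Magi1 17 of the 20 WT-only regions lay within 180 kb of the gene start and 3 further in. Ranked by q, the lead was followed by chr6:94163278-94163636, 120 kb from the start, with 3.43 and 2.58 (−log10 q 81.2 and 61.4). Next came chr6:94195218-94195671, at 88.5 kb, with 1.19 and 1.23, and chr6:94221867-94222071, at 62.0 kb, with 1.53 and 1.19. By pileup the third was chr6:94163024-94163205, beside the second, with 2.13 and 1.60. Joined across gaps of up to 1 kb, the 20 regions made 15 clusters, so that neighbouring regions are not independent openings. The lowest by q was an 81 bp region 328 kb inside the gene with 0.192 and 0.225, near the lowest strict values of the WT lists, 0.192 and 0.184.

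Elsewhere the further WT-only regions were few. Phactr2 had 1 more (chr10:13513413-13513645), inside an intron of Fuca2, at 1.13 and 0.614. Tifa had chr3:127824530-127824794, in a non-coding exon of Ap1ar, at 0.426 and 0.327, and chr3:127792279-127792443, 2.58 kb into Tifa, at 0.745 and 0.818. Rasgrf2 had chr13:92037972-92038394 in a coding exon at 0.895 and 0.818, chr13:92030505-92030646 beside the lead at 0.916 and 0.470, and chr13:92042325-92042429 at 0.298 and 0.245. WT replicate 1 was the higher of the pair in 20 of the 25 WT-only regions that are no leads. Their mean normalised pileup had a median of 0.460 and ran from 0.208 to 3.00, where the median of all 8673 WT-only regions was 0.366. The 5 leads lay above the 99th percentile of all WT-only regions, 2.18, which their choice as the strongest by q made nearly certain.

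The 4 IRF8KO-only regions had IRF8KO values between 0.165 and 0.695, where the WT-only regions that are no leads had a median mean pileup of 0.460. The highest by q in Phactr2 (chr10:13301081-13301433, in an intron 173 kb from the start) had 0.305 and 0.634 in IRF8KO replicates 1 and 2. In Tifa chr3:127793201-127793419 had 0.330 and 0.695, in the same stretch of the gene as the WT-only region at 2.58 kb. Lbh had 1 at −0.652 kb from its start (0.622 and 0.513), next to the promoter region, and 1 at 37.4 kb beyond the start (0.165 and 0.227). The count was 27 of 171 (15.8%) without IRF8KO replicate 1 and 20 of 160 (12.5%) without IRF8KO replicate 2. A single IRF8KO list then decides, and all regions gave 15.0% and 14.4%. The count was 1 at −log10 q of 5 or more (0.98%, against 3.51% of all regions) and 0 at a fold enrichment of 5 or more (against 2.37%). It was 1 at a normalised pileup of 0.5 or more (1.49%, against 1.57%). When a peak had to cover 50% of the region it was 7 (3.87%, against 6.34%).

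Of the 30 WT-only regions 26 lay more than 1 kb from any annotated transcript start, the Rasgrf2 lead and the region beside it being among the other 4, as did 88.1% of all 8673 WT-only regions. By the position of the summit 25 were intronic, the Tifa lead with its 75 coding bases among them, 2 were in coding exons, 1 in a non-coding exon, and 2 were intergenic. Their median length was 231 bp, against 211 bp for all WT-only regions and 380 bp for the leads.

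Regions with a deposited peak in all 4 lists allow a ratio. There were 50 in the 5 loci, with log2 ratios from −1.91 to 1.03 and a median of −0.58, where the median of all 58550 such regions was −0.31 (middle range, from the lower to the upper quartile, −0.67 to 0.07). The values are to be read against that shift, since scaling each library by its median over regions strict in all 4 moved every ratio up by 0.30 and put the median of all regions at 0 and that of the loci at −0.28. Both WT values lay above both IRF8KO values in 24 of the 50 (48.0%), against 37.1% of all such regions, and the converse held in 3 (6.00%), against 11.9%. With the other scaling these were 22 and 11 of 50, and 29.2% and 29.6% of all regions. When a peak had to cover 50% of the region, WT was higher in 11 of 30 (36.7%), near the 37.0% of all regions. IRF8KO was then higher in 0 of 30, against 9.13% of all regions. Without IRF8KO replicate 1 the median of the loci was −0.26 where all regions gave −0.06, and WT was higher in 52.4% and IRF8KO in 28.6%, against 41.7% and 33.8% of all regions. Without IRF8KO replicate 2 the median was −0.89 where all regions gave −0.60, and WT was higher in 88.5%, against 74.0% of all regions.

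By locus the medians were −1.48 in Rasgrf2 (4 regions), −0.82 in Magi1 (18), −0.65 in Lbh (6), −0.28 in Phactr2 (13) and −0.10 in Tifa (9). Relative to the median of all regions Rasgrf2, Magi1 and Lbh were lower in IRF8KO, and Phactr2 and Tifa lay slightly above it. With the other scaling the sign of the last pair turned, to 0.03 and 0.20, while Rasgrf2, Magi1 and Lbh remained below 0 at −1.18, −0.52 and −0.34. Without Magi1 the median of the other 4 loci was −0.51 over 32 regions, and WT was higher without overlap in 13 of them (40.6%), near the 37.1% of all regions.

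**Figure D4:**
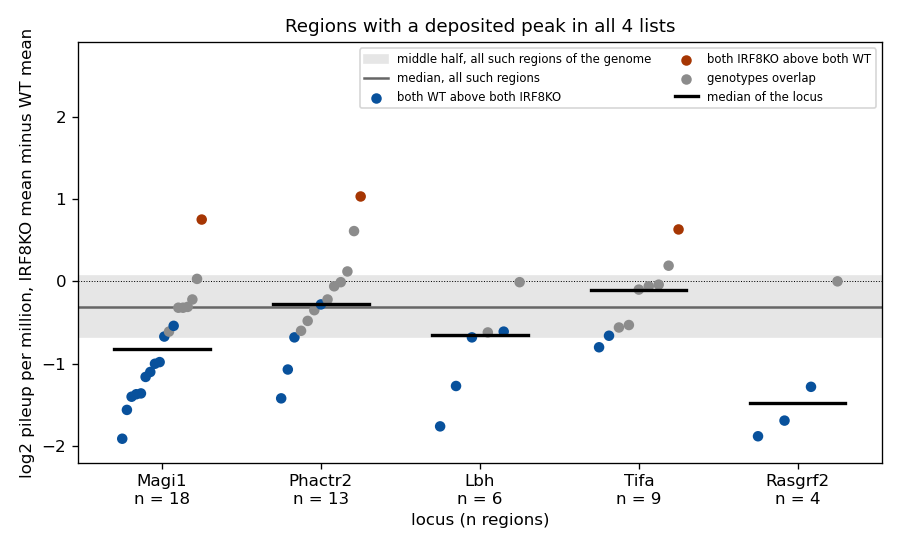
Log2 ratio of normalised pileup (IRF8KO mean minus WT mean) for each region with a peak in all 4 lists (points), by locus, with the locus median as a black bar. The grey line at −0.31 and the grey band give the median and the quartiles of all 58550 such regions; Rasgrf2 and Magi1 have medians of −1.48 and −0.82.

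The extremes within each locus show how mixed the loci were. In Magi1 the most negative region (chr6:93743224-93743440, 541 kb from the start) had 0.575 and 0.491 in WT and 0.165 and 0.121 in IRF8KO (log2 −1.91), followed by the gene start. The most positive (chr6:93758085-93758434) had 0.213 and 0.184 in WT and 0.254 and 0.438 in IRF8KO (log2 0.75), followed by chr6:93729818-93729987 at 0.03. In Rasgrf2 chr13:92041329-92042228 had 0.511 and 0.450 in WT and 0.140 and 0.121 in IRF8KO (log2 −1.88). Next was chr13:91915208-91915712 with 0.532 and 0.634 against 0.127 and 0.257 (log2 −1.69). At the other end chr13:91908278-91908578, the only Rasgrf2 region strict in all 4 libraries, had 0.724 and 0.675 in WT and 0.444 and 1.10 in IRF8KO, so that the WT values lay between the IRF8KO values. The next highest ratio in Rasgrf2 was already −1.28, at chr13:92053071-92053424, with 0.319 and 0.389 in WT and 0.140 and 0.151 in IRF8KO, without overlap.

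Phactr2 held the largest ratio upward of the 5 loci. The region chr10:13323618-13324671, 150 kb inside the gene at the annotated start of a shorter transcript, had 0.341 and 0.245 in WT and 0.381 and 0.921 in IRF8KO (log2 1.03), without overlap. It was followed by chr10:13388580-13388817 at 0.61, with 0.149 and 0.164 against 0.140 and 0.408. Its most negative regions were the Fuca2 start and chr10:13273671-13274287, 200 kb inside Phactr2, with 2.39 and 2.19 in WT and 0.723 and 1.65 in IRF8KO (log2 −1.07). The 2 IRF8KO libraries thus differed from each other in these regions by more than the 2 WT libraries did.

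In Lbh the most negative region was chr17:72966862-72967255, 48.8 kb beyond the start, with 1.90 and 1.31 in WT and 0.292 and 0.740 in IRF8KO (log2 −1.76). The intronic region chr17:72934168-72934625 had 0.511 and 0.736 against 0.203 and 0.317 (log2 −1.27). The most positive were chr17:72917250-72917420 at −0.01 and the start region. In Tifa the most positive was chr3:127786913-127787629, at −2.55 kb from the start, with 1.96 and 1.66 in WT and 2.36 and 3.28 in IRF8KO (log2 0.63), without overlap. It was followed by chr3:127769085-127769534 in Alpk1 with 3.37 and 4.15 against 3.38 and 5.41 (log2 0.19). The most negative in Tifa was chr3:127827031-127827580 with 0.341 and 0.245 against 0.140 and 0.196 (log2 −0.80), followed by the start. Tifa had regions of either direction within 10 kb of its lead. With the other scaling the Lbh region at −0.01 and the Rasgrf2 region at 0.00 both moved to 0.30, while the most negative region of each locus stayed below 0, between −1.61 in Magi1 and −0.50 in Tifa.

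Sequence was not used to choose the loci, so the ETS-IRF element is an added readout. It was searched for as GGAANNGAAA on both strands within 100 bp of the summit, the same 201 bases for every region, and it can overlap the ISRE pattern GAAANNGAAA. It was found in 5 of the 30 WT-only regions (16.7%, 95% Wilson interval 7.34 to 33.6, counting error only), in 3 of the 38 regions of the loci strict in all 4 libraries (7.89%), and in 4.28% of all regions. Over the genome it was in 18.7% of WT-only regions, 4.02% of regions strict in all 4 and 1.82% of IRF8KO-only regions. The share in the loci is thus close to that of WT-only regions at large, with a wide interval. Of the 5 matches 2 were in leads and 3 in the other 25 WT-only regions. Within 50 bp of the summit the share was 6.67% (2 of 30), against 14.1% of all WT-only regions and 2.55% of all regions.

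The matched sites of the 5 WT-only regions and of 1 IRF8KO-only region are shown with 10 bases on each side, on the strand of the match, capitals marking the element, so that their 2 free bases can be compared.
Rasgrf2 lead (chr13:92030820-92030849, minus): gagagcatgaGGAAGAGAAAccagattgtg
Magi1 WT-only (chr6:94104053-94104082, minus): tgtgatactaGGAAGAGAAAccagggttgt
Lbh lead (chr17:72903990-72904019, plus): agaagaagaaGGAAGGGAAActtgcaccct
Tifa WT-only (chr3:127824619-127824648, minus): tacagcaacaGGAAATGAAActtgaagttt
Magi1 WT-only (chr6:94222504-94222533, minus): aggcacaactGGAACAGAAAgtttgcggcc
Lbh IRF8KO-only (chr17:72955641-72955670, plus): caacacaaagGGAAAAGAAAagtgctggtg

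The element of the Rasgrf2 lead and that of the Magi1 region 180 kb inside the gene have the same letters, GGAAGAGAAA, and each is followed by ccag, after which the sequences differ. The Magi1 region with that site was low (chr6:94103893-94104171, 0.426 and 0.245 in WT), whereas the Rasgrf2 lead had 6.03 and 3.70, so that 1 matched sequence went with very different heights. The Lbh site in the last line lies in the IRF8KO-only region with 0.165 and 0.227.

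Of the other motifs, PU.1 (GAGGAAGT) was in 6 of the 30 WT-only regions of the loci (20%, Wilson interval 9.51 to 37.3), against 9.33% of all WT-only regions. CEBP (TTGCNNAA) was in 5 (16.7%) against 8.51%. In the regions of the loci strict in all 4 libraries PU.1 was in 15.8% and CEBP in 13.2%, against 10.7% and 9.49% of all regions of that class. RUNX (TGTGGTT) was in 4 (13.3%) against 5.07%. AP-1 (TGANTCA), ISRE, MAF (TGCTGAC) and CTCF (CCACNAGG) were in 1 region each, against 6.40%, 6.32%, 4.27% and 3.19% of all WT-only regions. MEF2 and NF-kB were in none, against 3.12% and 0.277%. Each of these intervals is wide at 30 regions. AP-1 was in 2 of the 4 IRF8KO-only regions of the loci, and in 19.0% of all IRF8KO-only regions.

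**Figure D5:**
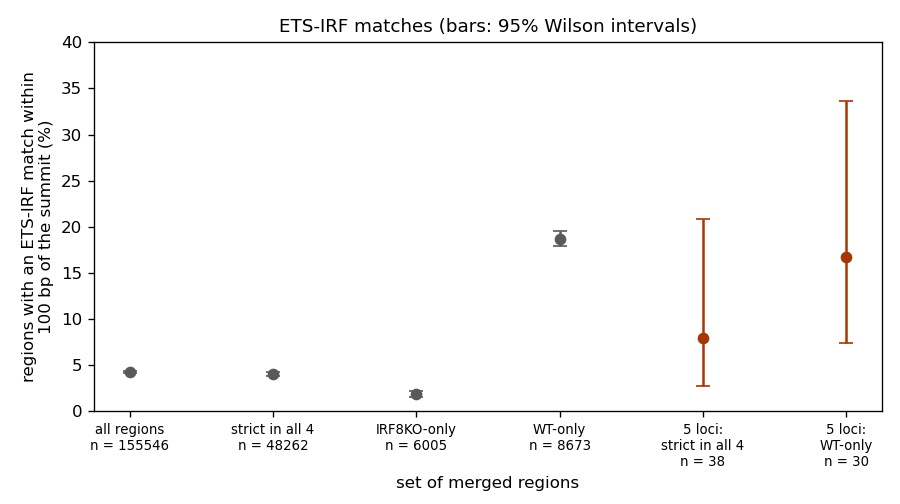
Share of regions with an ETS-IRF match within 100 bp of the summit (points, in percent) with 95% Wilson intervals (bars), for sets over the genome (grey) and in the 5 loci (orange). The WT-only regions of the loci are at 16.7% with an interval of 7.34 to 33.6, which holds the 18.7% of all WT-only regions.

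Genes that act with the 5 were read in the same way, as counts of regions in the gene body plus 50 kb, to be set against 5.58% WT-only and 3.86% IRF8KO-only of all regions. Of the MAGI family and its junction partners, Tjp1, a tight-junction scaffold, had 6 WT-only and no IRF8KO-only regions among 44. Rapgef2, an exchange factor for Rap, had 5 WT-only and 2 IRF8KO-only regions among 50. Magi2, a paralogue of Magi1, had 3 WT-only and 2 IRF8KO-only regions among 58. Among PHACTR family members and catalytic subunits of protein phosphatase 1 without Phactr2, 9 of 136 regions were WT-only (6.62%) and 2 IRF8KO-only (1.47%), with 3 WT-only regions among 25 at Phactr1.

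For Ras exchange factors and Ras proteins without Rasgrf2 the counts were 10 WT-only (4.57%) and 12 IRF8KO-only (5.48%) of 219 regions. Rasgrf1, the paralogue of Rasgrf2, had 6 WT-only and no IRF8KO-only regions among 26, and the median log2 ratio of its 3 regions with a peak in all 4 lists was −1.25. Rac1 had 1 WT-only and 4 IRF8KO-only regions among 27, and Rasgrp3 had 2 of each among 38. In the TIFA pathway, with all regions of the Tifa window left out, 7 of 144 regions were WT-only (4.86%) and 2 IRF8KO-only (1.39%). The window of Alpk1 overlaps that of Tifa and holds all 3 WT-only regions of Tifa, and its 12 regions outside the Tifa window had no WT-only region. Ikbkb, a kinase of the NF-kB pathway, had 3 WT-only regions among 15, and Map3k7, the kinase TAK1, had 2 among 17. The LBH domain family without Lbh had 2 WT-only regions among 43 (4.65%), both at Lbhd2.

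In a list of IRF, ETS and BATF factors 10 of 148 regions were WT-only (6.76%) and 5 IRF8KO-only (3.38%). Batf3 held 7 of the 10, among 31 regions. Irf8 itself had 1 WT-only and 2 IRF8KO-only regions among 39, with a median log2 ratio of 0.30 over 26 regions. Peak lists of open chromatin do not show whether the gene's product was made, so the genotype labels were not checked by them.

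The genes whose 4 libraries divided the summed strict pileup of the window most like each locus were found among 14077 genes with at least 10 regions, by Euclidean distance over the 4 percentages. Magi1 gave 47.2% and 35.3% to WT replicates 1 and 2 and 6.87% and 10.6% to IRF8KO replicates 1 and 2, and was nearest to Gramd3, Hs3st3b1 and Gimap6. Rasgrf2 gave 50.5%, 37.6%, 3.73% and 8.10%, the most uneven split of the 5, and was nearest to Jaml, Scn2b and 1700013H16Rik. Lbh gave 36.8%, 30.7%, 12.2% and 20.3%, nearest to Lrrc43, Adgrg1 and Lgals3. Phactr2 gave 32.5%, 27.4%, 15.0% and 25.1%, nearest to Bicdl2, Kcng1 and Nmral1. Tifa gave 29.3%, 26.9%, 16.8% and 27.1%, nearest to Zfp7, Abcg2 and Ttc23. In Tifa, IRF8KO replicate 2 came close to WT replicate 2, while IRF8KO replicate 1 was lower than both WT libraries. All these sums include the lead, which was chosen for its absence in IRF8KO. In Rasgrf2 the lead alone made up 56.6% and 46.6% of the strict pileup of the 2 WT libraries, in Lbh 34.6% and 31.5%, in Tifa 19.3% and 16.0%, in Phactr2 18.9% and 18.4%, and in Magi1 16.3% in each.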

How the data were processed

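ATAC-seq peak lists of 4 libraries were used, 2 labelled WT and 2 IRF8KO. Per the submitters' processing notes bcl2fastq, Bowtie2, MACS2 2.1.1.20160309, deepTools and the mm10 build were used. Each library had its own peak calling by the authors, per the file headers, with no control library, a p threshold of 0.01, and cut sites shifted by -37 bp and extended to 73 bp. Per the file headers tag size was 50 bp in WT and 49 bp in IRF8KO. The deposited pileup is a signal, not scaled for depth. Fold enrichment, as deposited, is the ratio of pileup to local background. The deposited p and q are −log10 values, and the q column was used although the headers say q was not calculated. Thresholds on q and fold move with depth, and depth was 1.51 times higher in IRF8KO than in WT on average.

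Intervals repeated for several summits were reduced to 1 peak with its best summit. Strict peaks (−log10 q of 2 or more) of the autosomes and X were merged into regions, and a library had a region when a peak overlapped it by at least 1 bp. Motif shares carry 95% Wilson intervals. The merging, classes, ratios and motif search were tested on simulated lists. Python 3.11.15, pandas 2.3.3, numpy 2.4.6 and scipy 1.17.1 were used. Genes, regions and motifs to be named followed a written rule: the 5 genes and coding neighbours, leads, up to 3 further WT-only and 3 IRF8KO-only regions by q, start regions, and the 2 lowest and 2 highest ratios per locus. The loci and lists were chosen with earlier results of these data known. Alternatives were other thresholds, overlaps, flanks, scaling and motif windows, and each library left out in turn. The count over the whole list of MAGI family and junction partners and the sums of the oligodendrocyte markers are not reported here.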

Additional observations from a re-analysis of the deposited data

How the results depend on the processing

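All 5 leads stayed WT-only under the 9 alternatives tried for them, which their WT scores and the lack of any IRF8KO peak fix beforehand. The median log2 ratio of the loci stayed below 0, between −0.89 and −0.26, under all 8. The WT-only count, 30 as reported (16.6%), was 17 at a fold enrichment of 5 or more (21.5%) and 15 at a normalised pileup of 0.5 or more (22.4%). All regions then gave 4.72% and 3.92%. With each replicate left out in turn the WT-only count ran from 33 to 50, or 19.3% to 30.5%, where all regions gave 7.03% to 17.9%. The IRF8KO-only count, 4 as reported, was 1 at −log10 q of 5 or more, 0 at a fold enrichment of 5 or more and 1 at a normalised pileup of 0.5 or more. It was 7 when a peak had to overlap at least 50% of the region. With each replicate left out it ran from 5 to 27, or 3.07% to 15.8%, where all regions gave 5.69% to 15.0%. Fewer peaks pass the stricter thresholds, and a genotype with 1 library left needs only that list. The share of shared regions with WT higher ran from 51.0% to 88.5% with each replicate left out, and that with IRF8KO higher from 5.77% to 28.6%. All regions gave 40.2% to 74.0% and 12.3% to 33.8%. When a peak had to overlap at least 50% of the region, WT was higher in 36.7%, where all regions gave 37.0%. Pileup scaled by the median of shared regions gave 22.0% with IRF8KO higher, where all regions rose from 11.9% to 29.6%, since this scaling moves every ratio up. The ETS-IRF share of WT-only regions was 6.67% within 50 bp of the summit, a window with fewer bases, where all WT-only regions gave 14.1%. No paired analysis was possible because the results come from no test and the labels do not tie replicate numbers across genotypes. A weak peak near the lowest deposited normalised pileup can be missed in any list, so absence is not shown for such heights.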
